A study of Mus musculus with 10 samples.

Results

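Interferon-stimulated genes were followed gene by gene and sample by sample in spinal cord RNA of mice with experimental autoimmune encephalomyelitis (EAE), an induced autoimmune inflammation of the central nervous system used to model multiple sclerosis. They were chosen by symbol: 46 genes induced by type I or type II interferon were listed, and 44 of them were found among the 21936 genes of the expression table. Mx1 and Mx2 were not analysed here. The samples fall into 2 groups of 5, Nar and EAE by their titles, and each is wild-type (WT) spinal cord taken at day 14. Nar stands for naringenin, a flavonoid of citrus fruit, but the treatment label names this compound for all 10 samples, and what the EAE group received cannot be read from the labels. Spinal cord without EAE was not analysed here, and the labels give neither sex, age nor immunising agent. Nor do they say that each sample came from its own animal, so every p-value rests on the variation among these samples, which could be technical.

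Interferons are secreted proteins that switch a cell into an antiviral state. Type I interferons signal through IFNAR and the kinases JAK1 and TYK2 to a complex that holds STAT2 and IRF9 and binds the interferon-stimulated response element (ISRE). Interferon gamma, the type II interferon made mainly by T cells and natural killer cells, signals through JAK1 and JAK2 to factors that bind the gamma-activated site (GAS). The Ifit and Oas families are classical type I targets, while the guanylate-binding proteins (GBP) and immunity-related GTPases (IRG), which attack the vacuoles of intracellular pathogens, respond strongly to interferon gamma. Many members respond to both, and in EAE both interferon types are known to act on microglia, astrocytes and the infiltrating leukocytes.

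The promoters of several members show the 2 elements side by side. RefSeq (GRCm38.p6) gave windows of 250 bases before to 50 after the start for 32 of the 44 genes, and both strands were searched for the ISRE core, taken as GAAA, any 2 bases and GAAA, and for TTCNNNGAA, the GAS consensus. An ISRE core was found in 20 of the 32 genes (62.5%) against 3.99% of 27025 genes with a window, a GAS in 11 (34.4%) against 9.55%, and both in 7 (21.9%) against 0.54%. A match is a description of the letters and says nothing about binding in these samples. The stretches below are shown because they let the elements be compared between genes whose values follow. Each runs 5′ to 3′ on the gene's strand, and capitals mark the matches, which read TTTC, 2 bases and TTTC where the ISRE core lies on the other strand.
Isg15: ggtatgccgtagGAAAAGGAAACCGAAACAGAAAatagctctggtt
Ifit1: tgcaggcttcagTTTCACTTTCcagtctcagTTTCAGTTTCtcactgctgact
Ifit3: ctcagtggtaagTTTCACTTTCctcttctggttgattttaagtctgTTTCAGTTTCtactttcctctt
Ifit3b: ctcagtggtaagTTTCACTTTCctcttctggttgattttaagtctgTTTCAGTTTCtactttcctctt
Igtp: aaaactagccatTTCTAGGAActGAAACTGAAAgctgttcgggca
Irgm2: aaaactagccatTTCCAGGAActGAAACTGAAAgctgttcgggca
Gbp7: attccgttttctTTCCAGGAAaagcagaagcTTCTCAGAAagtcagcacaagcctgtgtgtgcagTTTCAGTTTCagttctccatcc
Irf1: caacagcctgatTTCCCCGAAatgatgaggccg
Irf8: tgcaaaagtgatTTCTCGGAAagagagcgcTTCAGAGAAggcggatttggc

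The Isg15 stretch (chr4:156200863-156200908, minus strand) holds 3 overlapping ISRE cores and no GAS. Ifit1 (chr19:34640773-34640825, plus), Ifit3 (chr19:34583361-34583428, plus) and Ifit3b (chr19:34607757-34607824, plus) hold 2 cores each, and the Ifit3 and Ifit3b stretches are identical over all 68 bases. Igtp (chr11:58199499-58199543, plus) and Irgm2 (chr11:58214890-58214934, plus) carry a GAS with its first base 11 bases before that of an ISRE core. Gbp7 (chr3:142530218-142530304, plus) has 2 GAS matches and 1 ISRE core. The regulators Irf1 (chr11:53769912-53769944, plus) and Irf8 (chr8:120736175-120736225, plus) have 1 and 2 GAS matches in these windows and no ISRE core. By family, 7 of the 7 GBP and IRG genes with a window held an ISRE core and 4 also a GAS. Of 7 Ifit and Oas genes, 5 held an ISRE core, 2 a GAS and 1 both. Gbp2, Gbp3 and Irgm1, whose stretches are not printed, held an ISRE core and no GAS.

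Total counts ran from 14504726 to 15139706 reads in Nar and from 16658798 to 18961501 in EAE, and the 2 ranges do not overlap. Reads of the mitochondrial genome made up 6.69 to 7.51% of counts in Nar and 4.62 to 7.01% in EAE. The labels do not say if both groups went through library preparation and sequencing at one time, and a batch that coincides with the groups cannot be told apart from treatment. Markers of central nervous system cells were read in every sample: oligodendrocyte markers summed to 24200 to 38400 counts per M reads (CPM), neuron markers to 7050 to 9310 CPM and astrocyte markers to 5790 to 9210 CPM over the 10 samples. These cell types are not particular to spinal cord, so the sums do not test the spinal cord label. The quasi-likelihood test of edgeR was run on 14595 genes, of which 230 were called higher in Nar (1.58%) and 344 lower (2.36%) at a Benjamini-Hochberg adjusted p of 0.05.

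Of the 44 interferon-stimulated genes 0 passed the threshold, where 3.93% of all tested genes did, a share at which few calls among 44 could be looked for. The standard errors of the members were wide, with a median of 0.398 against 0.102 over all genes. The absence of calls therefore does not show that the groups were alike in these genes. At an unadjusted p below 0.05 edgeR counted 1 member, Gbp4, where 22.5% of all genes were counted. DESeq2 called 1 member, again Gbp4 (9.0% of all genes called), and limma-voom called 1, Irf8 (6.04%). All 44 passed the filter on low counts, 13 with higher and 31 with lower fitted values in Nar. Their median log2 fold change, Nar minus EAE, was -0.09, beside 0.02 over all genes. With the mitochondrial share as a covariate the median was 0.43, with 41 members above 0, so no direction of the group as a whole is given. That share was higher in every Nar sample than in every EAE sample but EAE 3 (7.01%). It thus largely follows the groups, and fits with this covariate, here and below, separate share and group poorly. In bulk tissue, fewer cells that express a gene and less RNA per cell cannot be told apart.

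The members varied far more between samples than most genes. The median standard error of a log2 fold change was 0.398 over the members and 0.102 over all tested genes. Within Nar the median SD of log2 CPM was 0.792 for the members and 0.133 for all genes, and within EAE it was 0.397 and 0.17 (n = 5 samples each). The spread was wider in Nar than in EAE for 41 of 44 members (93.2%), against 41.8% of all genes. Without Nar 4 the median SD of the members in Nar was 0.377, and it was wider than in EAE for 23 of 44 (52.3%), against 35.2% of all genes. For the GBP and IRG genes the median SD in Nar was 0.909 with and 0.894 without Nar 4, while for the Ifit and Oas genes it was 0.799 and 0.353.

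The extremes fell on few samples. Nar 4 had the highest CPM of all 10 samples in 32 of 44 members, against 11.3% of all genes, and it lay above every EAE sample in the same number, against 20.9%. The remaining highest values were in EAE 5 for 9 members, EAE 4 for 2 and Nar 1 for 1. Lowest values were in Nar 1 for 20 members (10.2% of all genes) and in Nar 5 for 16 (8.82%). Nar 5 lay below every EAE sample in 34 members (23.0% of all genes), Nar 1 in 29 (23.4%), Nar 2 in 17 (19.7%) and Nar 3 in 13 (21.7%).

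**Figure D1:**
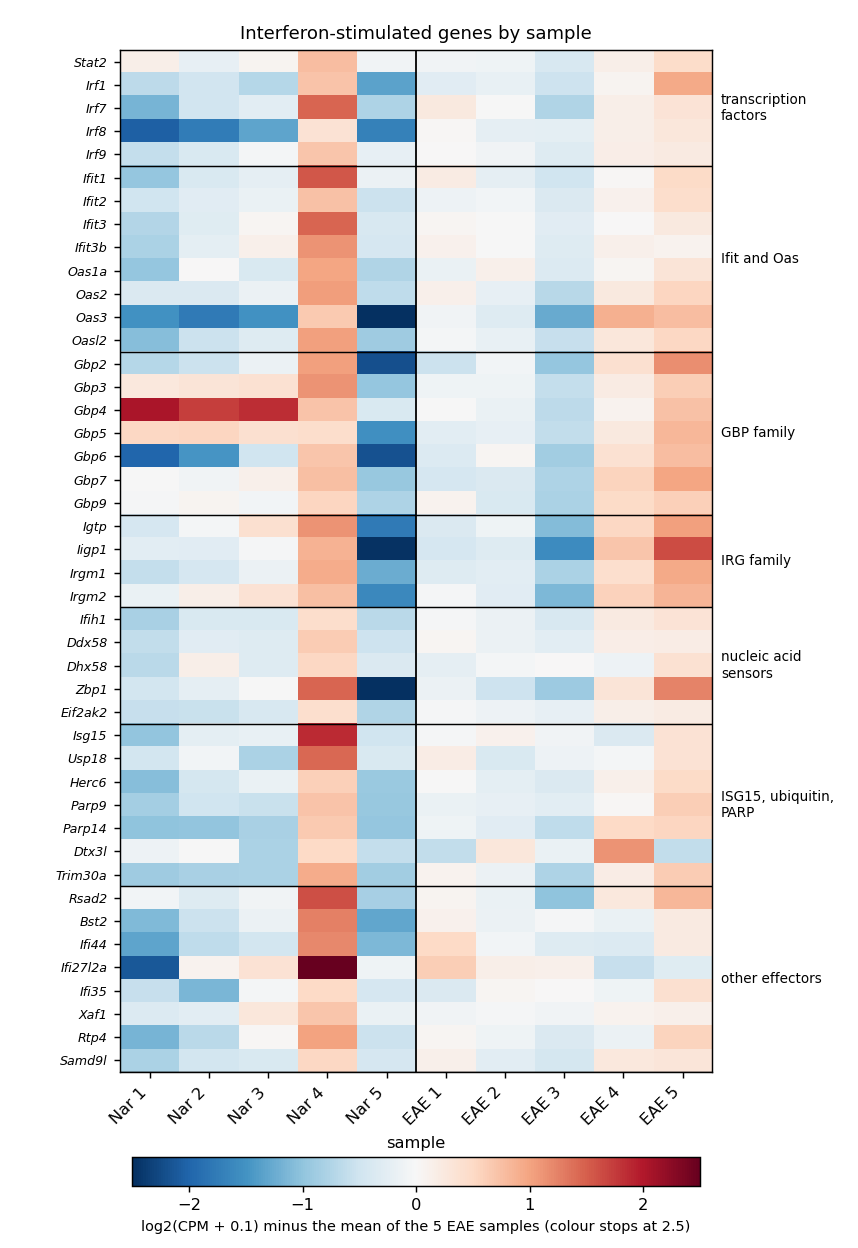
Each row is 1 of the 44 interferon-stimulated genes and each column 1 sample; colour gives log2(CPM + 0.1) minus the mean of the 5 EAE samples, blue lower and red higher. Nar 4 is red in most rows, Nar 1 and Nar 5 are blue in most rows, and Gbp4 is red in Nar 1, 2 and 3.

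Leaving out Nar 4, edgeR called 12 members, all lower in Nar, where 7.49% of all tested genes were called lower and 10.1% in either direction. They were Irf8, Oas3, Gbp6, Parp14, Trim30a, Ifi44, Parp9, Bst2, Ifih1, Eif2ak2, Samd9l and Ddx58. The median of the 44 was then -0.52 beside 0.02 for all genes. The groups, which overlapped in every member with all 10 samples (5.79% of all genes did not overlap), did not overlap in 8 members without Nar 4, all lower in Nar, against 8.7% of all genes lower without overlap. In no member was Nar 4 below all EAE samples, and whether its label is right was not tested. The labels do not set it apart, so it was kept in the main comparison, and the number of called members rests on it. Every sample was left out in turn, but Nar 4 is singled out here after its values in these members were seen. Where it was the highest Nar sample, leaving it out lowers the Nar values by construction. The calls and adjusted p without Nar 4, here and below, are therefore descriptions.

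Marker levels of immune cells moved with the same sample. Microglia markers summed to 646 CPM in Nar 4, while Nar 1, 2, 3 and 5 had 278 to 322 CPM and the EAE samples 537 to 640 CPM. Markers of infiltrating macrophages and monocytes summed to 47.8 CPM in Nar 4 and to 7.41 to 12.2 CPM in the rest of that group, against 25.4 to 173 CPM in EAE, with the highest sum in EAE 5. Chil3 alone gave 109.2 CPM in EAE 5 and 44.95 CPM in EAE 4, so this gene carries much of those sums. Arg1, Chil3, F13a1 and Cd14 were highest in EAE 5 and Ms4a7 in EAE 4, while Ccr2, Ly6c2, Plac8 and Ms4a4c were highest in Nar 4. T cell markers summed to 15.2 CPM in Nar 4, against 2.82 to 5.81 CPM in Nar 1, 2, 3 and 5, and the EAE range was 10.4 to 25.7 CPM. With all 10 samples, edgeR called 2 of 9 microglia markers (Gpr34 and P2ry13) lower in Nar, against 2.36% of all genes. It also called 2 of 9 macrophage and monocyte markers (Ms4a7 and Cd14) and 1 of 7 tested T cell markers (Cd3g) lower. Each of these calls was lost on leaving out at least 1 single sample. No marker of these 3 lists was at 0 reads in all 10 samples, and the part of cell numbers in the interferon-stimulated genes was not tested.

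Among the 5 transcription factors none was called, and Irf8 showed the widest gap between most Nar samples and EAE. Irf8 drives the development and activation of microglia and macrophages and is induced by interferon gamma. Its levels in Nar 1 to 5 were 7.51, 9.24, 12.6, 40.4 and 9.61 CPM, and in EAE 1 to 5 they were 31.9, 26.9, 26.5, 34.5 and 38.3 CPM. Nar 1, 2, 3 and 5 lay below every EAE sample and Nar 4 above all of them. The log2 fold change was -1.0 (SE 0.45, adjusted p = 0.229, edgeR), with means of 15.9 ± 13.8 and 31.6 ± 5.02 CPM (SD, n = 5). Without Nar 4 it was -1.70 (adjusted p = 8.66e-06), and limma-voom on all 10 samples gave -1.29 (adjusted p = 0.031).

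Irf1, a factor that relays interferon gamma signals to GBP genes, followed another order. It measured 9.53, 10.8, 9.14, 24.8 and 5.90 CPM in Nar and 12.2, 13.2, 10.4, 15.7 and 29.0 CPM in EAE. Here EAE 5 exceeded Nar 4, Nar 5 was lowest, and the groups overlapped (log2 fold change -0.42, SE 0.411, adjusted p = 0.58). Stat2, a signal transducer of the type I receptor, measured 40.9, 31.8, 38.8, 62.8 and 34.7 CPM in Nar and 34.4, 34.2, 27.8, 40.6 and 50.5 CPM in EAE. Its log2 fold change was 0.16 (SE 0.201, adjusted p = 0.681), with Nar 4 highest and EAE 3 lowest. Irf7, the amplifier of type I interferon production, ranged from 6.02 to 37.1 CPM and Irf9 from 17.8 to 43.3 CPM, both highest in Nar 4 and lowest in Nar 1, with log2 fold changes of 0.04 and -0.05.

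In the Ifit and Oas families, 0 of 8 genes were called, and Nar 4 was highest in 7 of them. Ifit proteins bind foreign RNA and block its translation, and Oas enzymes make the 2-5A messenger that activates RNase L. The genes Ifit1, Ifit2, Ifit3 and Ifit3b lie together at chr19:34550694-34650009, and Oas1a, Oas2 and Oas3 at chr5:120730333-120907521 (GRCm38). Ifit1 measured 6.69, 10.01, 11.2, 38.7 and 11.9 CPM in Nar and 15.1, 11.3, 9.29, 13.4 and 18.3 CPM in EAE. The other Nar samples lay within or below the EAE range, and Nar 4 was 2.11 times the highest EAE sample (log2 fold change 0.22, SE 0.458, adjusted p = 0.811).

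Ifit3 measured 23.7, 31.9, 40.6, 108 and 29.6 CPM in Nar against 40.4, 38.9, 32.4, 39.4 and 46.6 CPM in EAE. Nar 4 was again the highest, and the other Nar samples lay within or below the EAE range (log2 fold change 0.24, SE 0.399, adjusted p = 0.763). Per length, Ifit3 was the most abundant member in Nar, with 26.5 ± 19.7 FPKM (fragments per kilobase per M reads) against 22.9 ± 3.31 FPKM in EAE (SD, n = 5). Its reads are uncertain, since 51.2% of its 50-base stretches are also found in another gene, chiefly Ifit3b, and 44.95% of those of Ifit3b, chiefly in Ifit3. Without Nar 4 the log2 fold changes of Ifit1 and Ifit3 were -0.44 and -0.33 (adjusted p = 0.209 and 0.168).

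Oas3 was the least abundant member, at 0.0645 ± 0.0871 FPKM in Nar and 0.160 ± 0.0967 FPKM in EAE. It measured 0.270, 0.211, 0.267, 1.55 and 0 CPM in Nar and 0.888, 0.742, 0.342, 1.86 and 1.71 CPM in EAE. Nar 5 had 0 reads, which allows up to 3 reads at that depth, and Nar 4 lay among the EAE samples. The log2 fold change was -1.25 (SE 0.712, adjusted p = 0.317), and without Nar 4 it was -2.52 (adjusted p = 0.0223). The other 5 genes of these families had log2 fold changes from -0.18 (Oasl2) to 0.11 (Ifit3b). For Oas1a, 57.6% of its 50-base stretches are shared with other genes, chiefly Oas1g and Oas1b, so its count is uncertain.

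Of the 7 GBP genes none was called, and Gbp4 was the single member with an unadjusted p below 0.05 (0.0151). Gbp4 lies at chr5:105115767-105139586 on the minus strand, in a cluster with Gbp6 and Gbp9 (chr5:105077630-105293698), while Gbp2, Gbp3, Gbp5 and Gbp7 lie at chr3:142493978-142638008. Gbp4 measured 76.4, 61.4, 66.1, 30.2 and 14.2 CPM in Nar and 18.3, 16.3, 11.6, 19.7 and 30.8 CPM in EAE. Nar 1, 2 and 3 were far above every EAE sample, Nar 4 was just under EAE 5, and Nar 5 was below all EAE samples but EAE 3. The log2 fold change was 1.36 (SE 0.453, adjusted p = 0.129, edgeR), higher in Nar in 3 of 5 samples than in any EAE sample. DESeq2 gave the same fold change with an adjusted p of 0.0393, and leaving out each sample in turn gave 0.0587 to 0.263 with edgeR.

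Gbp6 and Gbp3 went in opposite directions to each other without passing the test. Gbp6 measured 1.76, 2.54, 5.07, 11.7 and 1.51 CPM in Nar and 5.68, 7.48, 3.88, 9.47 and 12.4 CPM in EAE (log2 fold change -0.78, SE 0.566, adjusted p = 0.439). Nar 1, 2 and 5 lay below every EAE sample, and without Nar 4 the log2 fold change was -1.51 (adjusted p = 0.0398). Of its 50-base stretches 70.7% are shared with other genes, chiefly Gm43302 and Gbp10, so this count is uncertain. Gbp3 measured 37.8, 39.2, 41.1, 69.0 and 16.1 CPM in Nar and 29.1, 29.4, 20.9, 36.1 and 48.1 CPM in EAE. Nar 1, 2 and 3 lay between EAE 4 and EAE 5, Nar 4 was highest and Nar 5 lowest (log2 fold change 0.31, SE 0.351, adjusted p = 0.631).

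Gbp2, among the most abundant members per length at 15.3 ± 11.8 FPKM in Nar and 20.2 ± 12.4 FPKM in EAE (SD, n = 5), ran over a wide range. It measured 26.6, 29.8, 39.6, 88.4 and 9.47 CPM in Nar and 30.1, 41.4, 22.2, 57.9 and 98.0 CPM in EAE. EAE 5 and Nar 4 were the 2 highest and Nar 5 the lowest, and the groups overlapped throughout (log2 fold change -0.36, adjusted p = 0.758). Gbp5, a GTPase that promotes inflammasome assembly, measured 32.8, 33.1, 30.2, 31.0 and 7.82 CPM in Nar and 19.1, 19.9, 14.8, 27.1 and 40.6 CPM in EAE. In this gene Nar 4 was level with Nar 1, 2 and 3, only EAE 5 was higher, and the log2 fold change was 0.15 (adjusted p = 0.854). Gbp7 and Gbp9 both had log2 fold changes of -0.09.

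All 4 IRG genes were lowest in Nar 5, 3 of them were highest in EAE 5, and none was called. These GTPases strip the membranes of pathogen vacuoles, and the Irgm proteins keep the others inactive on the cell's own membranes. Iigp1 measured 25.2, 24.96, 29.8, 54.99 and 5.35 CPM in Nar and 22.5, 24.1, 10.1, 48.7 and 94.4 CPM in EAE. EAE 5 was the highest by a wide margin, Nar 4 and EAE 4 came next, and Nar 1, 2 and 3 lay just above EAE 1 and 2 (log2 fold change -0.51, SE 0.688, adjusted p = 0.70). Irgm1 measured 32.99, 37.3, 45.7, 95.4 and 21.2 CPM in Nar and 40.4, 41.9, 29.0, 67.5 and 96.4 CPM in EAE. Nar 4 and EAE 5 were level at the top (log2 fold change -0.24, SE 0.459, adjusted p = 0.794).

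Irgm2 measured 27.2, 33.8, 39.5, 51.4 and 9.88 CPM in Nar and 30.1, 25.1, 14.0, 45.6 and 54.9 CPM in EAE. Igtp, which shares its promoter letters with Irgm2 at 49 of 50 compared bases, measured 21.8, 28.3, 38.7, 64.0 and 8.51 CPM in Nar and 22.8, 27.1, 13.8, 42.3 and 60.2 CPM in EAE. In both genes Nar 5 was lowest and EAE 3 next, and the 3 highest samples were EAE 4, Nar 4 and EAE 5, with Nar 4 highest for Igtp and EAE 5 for Irgm2. Their log2 fold changes were -0.07 (SE 0.463, adjusted p = 0.947) and -0.04 (SE 0.547, adjusted p = 0.972). Their annotated exons overlap on the same strand over 8.01% of Igtp and 4.39% of Irgm2, so some reads could count for either. The fitted signs of the IRG genes are not stable: with the mitochondrial share as a covariate Iigp1, Irgm1 and Irgm2 were at 1.11, 0.64 and 0.90.

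**Figure D2:**
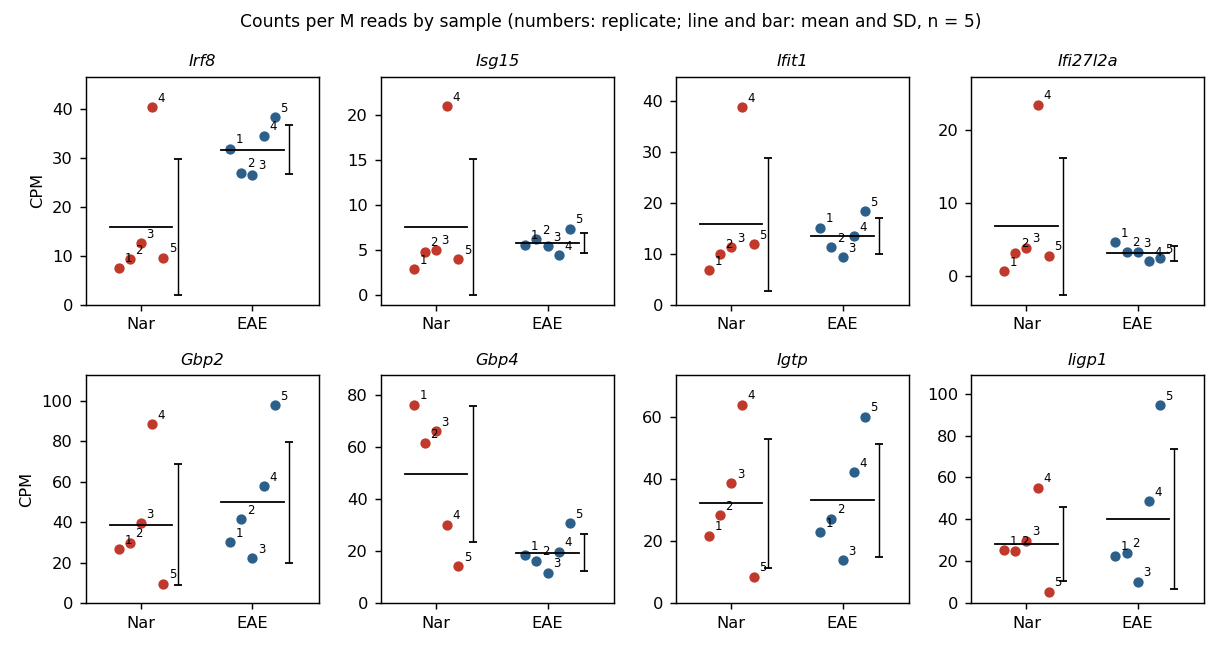
CPM of 8 members in each sample, Nar in red and EAE in blue, with the replicate number beside each point and the mean and SD of 5 samples as line and bar. Nar 4 is the highest point for Irf8, Isg15, Ifit1 and Ifi27l2a, EAE 5 for Gbp2 and Iigp1, and Nar 1, 2 and 3 are highest for Gbp4.

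The contrast of the families was drawn per sample as the mean log2 CPM of the 11 GBP and IRG genes minus that of the 8 Ifit and Oas genes. Since genes differ in length, the size of this difference has no meaning by itself, and only its change from sample to sample is read. The GBP and IRG means were 4.52, 4.63, 4.88, 5.45 and 3.18 in Nar and 4.39, 4.44, 3.75, 5.06 and 5.56 in EAE. The Ifit and Oas means were 2.54, 2.93, 3.08, 4.47 and 2.54 in Nar and 3.41, 3.29, 2.86, 3.61 and 3.82 in EAE. Nar 1 and Nar 5 thus tied for the lowest Ifit and Oas mean, while their GBP and IRG means were near the middle and at the very bottom of the 10 samples. The tie pools different orders: the 4 Ifit genes averaged 3.83 in Nar 1 and 4.20 in Nar 5, and the 4 Oas genes 1.26 and 0.87. Oas3 had 0 reads in Nar 5. Nar 4 and EAE 5 were close in GBP and IRG genes, while Nar 4 was well above EAE 5 in Ifit and Oas genes.

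The difference of the family means was 1.97, 1.71, 1.80, 0.99 and 0.65 in Nar and 0.99, 1.15, 0.88, 1.44 and 1.74 in EAE. Nar 1 and Nar 3 lay above every EAE sample, Nar 2 between EAE 4 and EAE 5, Nar 4 level with EAE 1, and Nar 5 below every EAE sample. The groups therefore overlapped, with means of 1.42 ± 0.575 and 1.24 ± 0.350 (SD, n = 5), and the gap of 0.18 was smaller than either SD. Its sign depends on the genes pooled: Nar minus EAE was -0.11 for GBP and IRG, -0.05 for the 4 Ifit genes and -0.52 for the 4 Oas genes. Among the Oas genes, Oas3 had only 0 to 35 reads per sample. Without Gbp4, an alternative chosen after seeing the data, the gap was 0.05, and the samples read 1.80, 1.58, 1.68, 1.04 and 0.58 in Nar and 1.01, 1.19, 0.90, 1.52 and 1.80 in EAE. No test was run on this contrast, because the families were named with results of these data known.

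**Figure D3:**
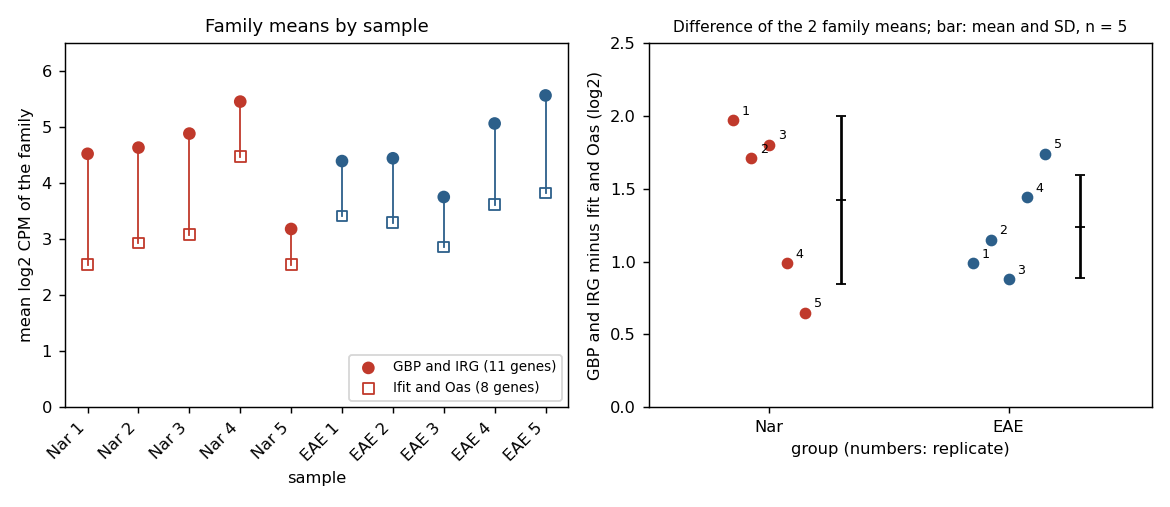
Left, mean log2 CPM of the 11 GBP and IRG genes (circles) and the 8 Ifit and Oas genes (squares) in each sample; right, the difference of the 2 means by group, with mean and SD of 5 samples. The difference is 1.71 to 1.97 in Nar 1, 2 and 3, 0.99 in Nar 4 and 0.65 in Nar 5, and 0.88 to 1.74 in EAE.

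Counts of single genes were as follows by family. Nar 4 lay above every EAE sample in 7 of 8 Ifit and Oas genes and in 2 of 11 GBP and IRG genes (20.9% of all genes). Nar 5 lay below every EAE sample in 9 of 11 GBP and IRG genes and 6 of 8 Ifit and Oas genes (23.0% of all genes). Nar 1 lay below in 7 of 8 Ifit and Oas genes and 1 of 11 GBP and IRG genes (23.4%). The FPKM ratio of Iigp1 to Ifit1 was 1.72, 1.14, 1.21, 0.648 and 0.206 in Nar and 0.680, 0.972, 0.495, 1.66 and 2.35 in EAE, so it was lowest in Nar 5 and highest in EAE 5. The ratio of Igtp to Ifit1 was 4.27, 3.71, 4.53, 2.17 and 0.942 in Nar and 1.98, 3.16, 1.95, 4.14 and 4.32 in EAE, lowest in Nar 5 and highest in Nar 3. Over the 10 samples, the median correlation of log2 CPM between pairs was 0.89 within GBP and IRG genes, 0.90 within Ifit and Oas genes and 0.71 between them. These values are descriptions, since all pairs share the same 10 libraries.

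The 5 nucleic acid sensors were all highest in Nar 4, and none was called. Eif2ak2 (PKR), the kinase that stops translation on meeting double-stranded RNA, measured 19.3, 19.7, 21.96, 38.5 and 17.1 CPM in Nar and 28.4, 26.3, 25.1, 32.1 and 33.1 CPM in EAE. Every Nar sample but Nar 4 lay below every EAE sample (log2 fold change -0.32, SE 0.20, adjusted p = 0.375). Without Nar 4 it was -0.57 (adjusted p = 0.00285). Ifih1 (MDA5), a sensor of long double-stranded RNA, measured 7.91, 10.8, 10.7, 19.2 and 8.78 CPM in Nar and 13.7, 12.7, 10.7, 16.4 and 17.8 CPM in EAE (log2 fold change -0.32, SE 0.226, adjusted p = 0.43). Nar 2 and Nar 3 were level with the lowest EAE sample, EAE 3.

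Ddx58 (RIG-I), which senses RNA ends with a triphosphate, measured 10.3, 12.97, 12.6, 24.8 and 11.1 CPM in Nar and 16.4, 14.3, 13.3, 17.9 and 18.1 CPM in EAE. Nar 4 was above and the other Nar samples below every EAE sample (log2 fold change -0.16, SE 0.217, adjusted p = 0.703). Zbp1, a sensor of Z-form nucleic acid that triggers cell death, ranged from 0.755 CPM in Nar 5 to 13.6 CPM in Nar 4, with 11.6 CPM in EAE 5 as the next highest. Dhx58, the regulator LGP2, ranged from 2.43 to 5.67 CPM. With the mitochondrial share as a covariate the fitted values of Ifih1 and Ddx58 were above 0, at 0.14 and 0.18.

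The ISG15, ubiquitin and PARP genes gave 0 calls among 7. Isg15, a ubiquitin-like protein attached to other proteins after interferon, measured 2.84, 4.79, 5.01, 20.9 and 3.98 CPM in Nar and 5.56, 6.15, 5.36, 4.42 and 7.34 CPM in EAE. Nar 4 was 2.85 times the highest EAE sample, and the other Nar samples lay within or below the EAE range (log2 fold change 0.38, adjusted p = 0.698). Usp18, the protease that removes ISG15 and dampens IFNAR signalling, was 11.6 CPM in Nar 4 and 2.40 to 5.46 CPM in the other 9 samples. Trim30a, a mouse ubiquitin ligase, was 30.7 CPM in Nar 4 and 8.59 to 9.28 CPM in the other Nar samples, against 9.35 to 24.98 CPM in EAE.

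Parp14, an ADP-ribosyltransferase of macrophage activation, measured 10.6, 10.8, 12.1, 33.9 and 10.9 CPM in Nar and 19.9, 17.5, 13.8, 30.1 and 31.2 CPM in EAE. All Nar samples but Nar 4 lay below every EAE sample (log2 fold change -0.52, SE 0.392, adjusted p = 0.46). Parp9 measured 7.44, 9.52, 9.08, 22.1 and 6.86 CPM in Nar and 11.9, 11.6, 11.1, 13.6 and 20.5 CPM in EAE, in the same arrangement (log2 fold change -0.32, SE 0.326, adjusted p = 0.592). Without Nar 4 the 2 genes were at -1.02 (adjusted p = 0.0144) and -0.74 (adjusted p = 0.0214). Herc6, the mouse ligase that attaches ISG15, measured 5.82, 9.02, 10.9, 18.6 and 6.45 CPM in Nar and 12.3, 10.4, 9.58, 13.5 and 17.2 CPM in EAE. Only Nar 3 and Nar 4 reached the EAE range or beyond (log2 fold change -0.31, SE 0.298, adjusted p = 0.57).

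Among the other effectors, Ifi27l2a had the largest standard error of all members. It measured 0.609, 3.17, 3.87, 23.6 and 2.75 CPM in Nar and 4.62, 3.29, 3.25, 1.97 and 2.39 CPM in EAE. Nar 4 was 5.10 times the highest EAE sample while Nar 1 was the lowest of all 10. The log2 fold change was 1.13 (SE 0.804, adjusted p = 0.433), and without Nar 4 it was -0.25 (adjusted p = 0.74). Samd9l, a restriction factor of poxviruses, measured 9.06, 11.5, 12.02, 22.5 and 11.7 CPM in Nar and 17.2, 13.2, 11.6, 19.0 and 19.5 CPM in EAE (log2 fold change -0.27, SE 0.236, adjusted p = 0.528). Nar 1 and Nar 2 lay below every EAE sample, and Nar 3 and Nar 5 just above the lowest, EAE 3.

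Ifi35 measured 2.03, 1.34, 2.94, 4.39 and 2.26 CPM in Nar and 2.37, 3.18, 3.08, 2.82 and 4.10 CPM in EAE, with overlap of the groups (log2 fold change -0.26, SE 0.278, adjusted p = 0.608). Bst2 (tetherin), which holds budding virus at the cell surface, was among the most abundant members at 23.1 ± 19.6 FPKM in Nar and 24.4 ± 3.08 FPKM in EAE (SD, n = 5). Its CPM was 52.0 in Nar 4, with 8.78 to 19.6 in the rest of that group and 19.4 to 25.4 in EAE. Rsad2 (viperin), Ifi44, Rtp4 and Xaf1 were also highest in Nar 4, at 14.6, 12.1, 21.3 and 27.8 CPM. Xaf1 had the smallest standard error of all members, 0.175, with a log2 fold change of 0.10.

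**Figure D4:**
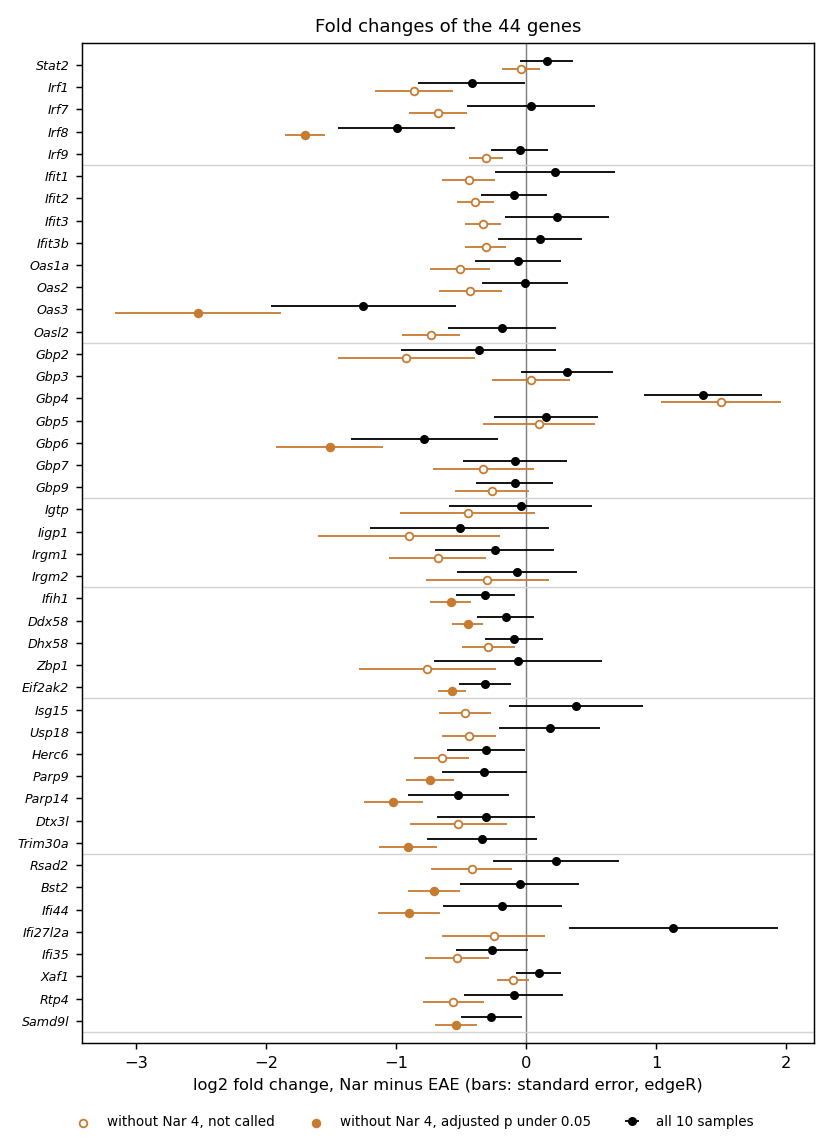
Log2 fold change (Nar minus EAE) with its standard error for the 44 genes by role, in black with all 10 samples and in orange without Nar 4, filled where the adjusted p was under 0.05. No gene is called with all 10 samples and 12 are called without Nar 4; Gbp4 stays above 0 in both.

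Gbp4 departed from most of the other GBP and IRG genes among the members. Its correlation with the other 10 GBP and IRG genes over the 10 samples had a median of 0.41, and with the 8 Ifit and Oas genes of -0.11. Measured against Gbp2 per length, Gbp4 stood at 0.963, 0.691, 0.561, 0.115 and 0.504 of the Gbp2 FPKM in Nar and at 0.205, 0.132, 0.176, 0.114 and 0.105 in EAE. Nar 1, 2, 3 and 5 were above every EAE sample, and Nar 4 was within the EAE range. Nar 5 thus had a low Gbp4 level, 1.89 FPKM, beside a lower Gbp2 level, 3.75 FPKM, than any other sample.

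**Figure D5:**
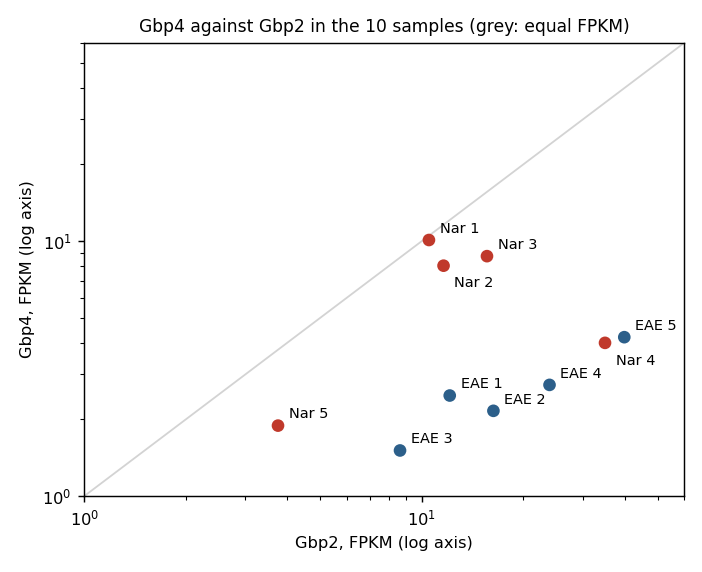
Gbp4 against Gbp2 in FPKM, both axes logarithmic, 1 point per sample with Nar in red and EAE in blue; the grey line marks equal FPKM. Nar 1, 2, 3 and 5 lie nearer to the line (ratios 0.504 to 0.963) than Nar 4 and the EAE samples (0.105 to 0.205).

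The genes most like Gbp4 by the correlation of log2 CPM over the 10 samples, of 14094 compared, were Tnfsf10 (0.95), Ly6a (0.95), Tgtp1 (0.94) and Ly6c1 (0.92), a search made after the values of Gbp4 were seen. Of these, Ly6a and Tgtp1 are also on the list of further interferon-stimulated genes, so the pattern is not particular to Gbp4 among such genes. Tnfsf10 measured 17.8, 16.0, 15.1, 10.7 and 7.5 CPM in Nar and 9.6, 7.6, 6.8, 10.6 and 8.9 CPM in EAE. Ly6a measured 77, 73, 65, 63 and 45 CPM in Nar and 42, 44, 40, 44 and 60 CPM in EAE. Tgtp1 measured 6.2, 5.6, 5.7, 2.7 and 1.2 CPM in Nar and 2.3, 1.5, 1.1, 2.3 and 5.4 CPM in EAE. In each of them Nar 1, 2 and 3 were above every EAE sample. Ly6c1, which marks brain endothelium, measured 119, 113, 92.7, 76.7 and 68.2 CPM in Nar and 54.3, 65.0, 61.9, 67.9 and 78.1 CPM in EAE. Nar 1, 2 and 3 were above every EAE sample, as for Gbp4 (log2 fold change 0.52, adjusted p = 0.0838). The 8 endothelial markers, Ly6c1 among them, summed to 457 to 555 CPM in Nar and 405 to 456 CPM in EAE, 0 of 8 were called, and none was at 0 reads in all samples. Without Ly6c1, an alternative added after seeing the data, the other 7 summed to 372 to 442 CPM in Nar and 343 to 402 CPM in EAE, and these ranges overlap. The log2 fold changes of these 7 markers ran from -0.01 (Kdr) to 0.28 (Cldn5). The part of endothelial RNA in the Gbp4 level was not tested.

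The remaining genes of the pathway were taken from lists of its parts. Of 10 interferon ligand genes in the table none passed the filter on low counts: the 10 genes had 21 reads over all samples, and 5 (Ifna1, Ifna4, Ifna5, Ifnl2 and Ifnl3) had 0 in all. Ifng had 7 reads in EAE 5, 2 in Nar 2, 1 in Nar 1 and 0 in the other samples. Ifnb1 had 1 read, in EAE 3. A count of 0 allows up to 3 reads in a sample, so a difference in ligands was not detectable at this depth.

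Of 6 receptor genes, 1 passed the test and was lower, against 2.36% of all genes called lower. Ifngr1, the ligand-binding chain of the interferon gamma receptor, measured 23.7, 25.1, 23.8, 33.1 and 21.9 CPM in Nar and 40.8, 34.6, 36.4, 44.1 and 43.7 CPM in EAE. Every Nar sample lay below every EAE sample, Nar 4 included. Ifngr1 fell by 0.65 on the log2 scale (SE 0.111, adjusted p = 0.00772), and it remained called whichever sample was left out (adjusted p up to 0.0296).

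Of 5 kinases and STATs, 1 was called lower in Nar, against 2.36% of all genes. Jak1, the kinase shared by both interferon pathways, was at 170.1 ± 15.6 against 209.5 ± 10.1 CPM (SD, n = 5; log2 fold change -0.30, adjusted p = 0.0264). That call was lost on leaving out any 1 of Nar 1, Nar 3, Nar 5, EAE 1 or EAE 4 (adjusted p 0.0512 to 0.0768). Of 8 negative regulators none was called: the 2 of smallest p were Ptpn6, a phosphatase of leukocytes (log2 fold change -1.19, adjusted p = 0.116), and Pias1 (-0.15, adjusted p = 0.205).

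Of 14 tested genes on the list for the induction of interferon and its control, 2 were called lower in Nar, against 2.36% of all genes. Tlr3, the endosomal receptor of double-stranded RNA, fell by 0.37 on the log2 scale (adjusted p = 0.0398), and Ikbke, a kinase that activates IRF3, fell by 1.05 (adjusted p = 0.0496). The Tlr3 call was lost without any 1 of Nar 1, 2, 3 or 5 or EAE 2, 4 or 5, with adjusted p from 0.0598 to 0.103. The Ikbke call was lost without any 1 of Nar 1, 2, 3 or 5 or EAE 1, 4 or 5, with adjusted p from 0.079 to 0.126. Of 39 further interferon-stimulated genes 0 were called, with a median log2 fold change of -0.29, and without Nar 4 11 were called lower, against 7.49% of all genes. The 2 of smallest p were Ly6a (0.49, adjusted p = 0.0798) and Lgals3bp (-1.29, adjusted p = 0.0838).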

How the data were processed

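RNA of 10 spinal cord samples was sequenced as poly-A selected paired-end libraries, per the labels' protocols, which name no strand-marking step. Reads were handled with cutadapt and HISAT2 2.0.5, per the submitters' processing notes. Which read counter and annotation release were used is not given in the sources used here. Per the file headers, the authors' table holds raw read counts and FPKM for each gene and sample. The authors' deposited FPKM equals the count over gene length and column total: of 153986 values above 0.1, 100.0% lay within 1%. Of 21936 gene identifiers 21617 have the same start and end in GENCODE M21 (GRCm38).

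The count test was edgeR 4.0.16 under R 4.3.3 (filterByExpr, TMM, robust glmQLFit, glmQLFTest) over all genes, two-sided, Benjamini-Hochberg adjusted over 14595 genes at 0.05. Samples were grouped by title. CPM uses TMM-scaled totals, log2 CPM a prior count of 2. Standard errors are the fold change over the square root of F. The script was tested on simulated data. The members, families and lists were chosen with earlier results of these data known. Full values are given for the 3 tested members of smallest p in each role and, per pathway list, for genes past the threshold or otherwise the 2 of smallest p; other members are named by range or for the family contrast, after their values were seen. Alternatives were DESeq2 1.42.0, limma 3.58.1 (voom, and log2 FPKM with 1 or 0.1 added), other scalings and filters, the mitochondrial share, a replicate block and leaving out each sample. Sequences are RefSeq's. One index gene of the pathway that was also selected is not reported here.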

Additional observations from a re-analysis of the deposited data

Results flagged for a closer look

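In 6 of 58 groups of 5 values, compared on the log2 scale, the highest sample stood apart from the other 4 by Dixon's criterion. In each of the 6 that sample was Nar 4. The criterion was not applied to CPM without logarithms, so the genes listed here are those flagged on the log2 scale only. Chance flags about 5% of such groups, and the groups share samples, so the 6 are not independent. Ddx58 was 24.8 CPM in Nar 4 and 10.3 to 12.97 CPM in the other Nar samples, Parp14 was 33.9 CPM against 10.6 to 12.1 CPM, and Parp9 was 22.1 CPM against 6.86 to 9.52 CPM. The mean log2 CPM of the transcription factors was 5.32 in Nar 4 and 3.67 to 4.08 in the other Nar samples. That of the Ifit and Oas genes was 4.47 against 2.54 to 3.08, and that of the ISG15, ubiquitin and PARP genes was 4.38 against 2.66 to 2.99.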

How the results depend on the processing

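The count of called genes was 574 in the main test, 1314 with DESeq2, 881 with limma-voom, 197 with the mitochondrial share as a covariate and 161 to 1486 on leaving out 1 sample. Leaving out Nar 1 gave 161, Nar 5 166, Nar 3 205, EAE 1 276, EAE 4 311, EAE 5 325, EAE 3 916 and Nar 4 1486. The count of called members was 0 in the main test, 1 with DESeq2, 1 with limma-voom and 0 to 12 on leaving out 1 sample. The median over the members was 0.43 with the mitochondrial share and -0.52 to 0.04 on leaving out 1 sample, and the family gap was 0.04 to 0.38 there. Without the members that share over 25% of their 50-base stretches, chosen after seeing the data, the gap was 0.40.

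Over 21 named members and 21 alternatives, 29 fitted values changed sign, none past the threshold. Ifit1 was at -0.03 with limma-voom and at -0.03, -0.06 and -0.03 on log2 FPKM (1 added, 0.1 added, no filter), where Ifit3 was at -0.01, -0.02 and -0.01. With the mitochondrial share, Irf1 was at 0.22, Oas3 0.34, Gbp6 0.07, Iigp1 1.11, Irgm1 0.64, Irgm2 0.90, Ifih1 0.14, Ddx58 0.18, Parp14 0.27, Herc6 0.10, Parp9 0.08 and Samd9l 0.24. Over the fits that left out 1 sample, Stat2 ran from -0.04 to 0.29, Ifit3 from -0.33 to 0.39, Ifit1 from -0.44 to 0.4 and Ifi27l2a from -0.25 to 1.41, each lowest without Nar 4. Irgm2 ran from -0.30 to 0.17, Iigp1 from -0.90 to 0.09 and Irgm1 from -0.68 to 0.06, each lowest without Nar 4 and highest without EAE 5; Irgm2 was also above 0 without Nar 5 (0.15) or EAE 4 (0.06). The cause of these changes was not tested.

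Same-numbered samples did not deviate together: their correlations over genes were 0.031, 0.045, -0.014, 0.161 and -0.227, and no sample correlated best with its own number, so the numbers are not read as a pairing. A replicate block called 636 genes and 0 members, with a member median of -0.21 and Ifit1 at -0.01. Changes of the size seen in most members lie within their standard errors, so at this spread they were not detectable.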

Other observations

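Nar 4 and EAE 5 were also the highest pair in 2 chemokine genes and in Ifi200 genes that are not among the 44. The Ifi200 genes were Ifi204, Ifi207, Ifi209, Ifi211 and Ifi213, of which Ifi204 is given in full. Cxcl10, a chemokine that draws T cells, measured 0.609, 3.60, 6.54, 45.4 and 2.26 CPM in Nar and 11.4, 15.1, 6.39, 13.2 and 37.2 CPM in EAE. Cxcl9 measured 0.135, 1.20, 4.27, 16.2 and 0.137 CPM in Nar and 6.04, 5.36, 3.59, 14.8 and 17.5 CPM in EAE. Nar 4 was the higher of that pair in Cxcl10 and EAE 5 in Cxcl9, and Nar 1 and Nar 5 were the 2 lowest in both genes (edgeR log2 fold changes -0.51 and -1.11, adjusted p = 0.799 and 0.556). Ifi204, of the family of nuclear DNA-binding proteins, measured 0.879, 4.16, 4.07, 19.5 and 2.33 CPM in Nar and 8.05, 7.90, 5.53, 11.01 and 19.3 CPM in EAE (log2 fold change -0.74, adjusted p = 0.576). These genes were chosen after their values were seen.

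Dtx3l and Parp9 lie head to head on opposite strands, their proteins form a complex, and their exons overlap over 8.0% of Dtx3l and 9.4% of Parp9, with no strand-marking step named. Dtx3l measured 10.01, 10.9, 6.28, 15.4 and 7.20 CPM in Nar and 7.10, 13.3, 9.81, 24.1 and 7.11 CPM in EAE. In EAE 5 Dtx3l was among the lowest samples while Parp9 was second only to Nar 4, and in EAE 4 Dtx3l was the highest of all samples. No test was run on this pair.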
